A study of Mus musculus with 2 samples.

Results

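The EGF family ligands Egf, Tgfa, Areg, Ereg and Hbegf, the receptors Egfr, Erbb2 and Erbb3, and the receptor inhibitor Errfi1 were examined in single cells of the mouse jejunal crypt. These 9 genes were taken as a named list of 27998 genes in the count matrices, and each was read in the 10 cell types that the authors annotated. Jejunal crypts were taken at 12 months of age from 2 male mice with a whole-body deletion of miR-375 (375KO). There was 1 library per mouse, and the libraries are referred to as replicates 1 and 2. The strain label of both mice is C57BL6/2J, and the extraction protocol calls them B6 albino. Per the methods, miR-375 was deleted with CRISPR/Cas9 in hybrid embryos and the null mice were then bred back to B6 albino. Both mice carry the deletion, no wild-type cell was used here, and no genotype was therefore compared with another. The matrices have no row for miR-375, so the deletion could not be checked in these data. After the authors' filters 3275 cells were left, 2082 in the first library and 1193 in the second, and 3207 of them carry an epithelial label.

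EGF family ligands are made as membrane proteins that proteases shed, and they bind ErbB receptors, which form dimers and signal through Ras, Raf, MEK and ERK and through PI3K and Akt. Erbb2 has no ligand of its own, Erbb3 has little kinase activity and signals as the partner of another receptor, and Errfi1 (also called Mig6) binds the Egfr kinase and inhibits it. In the intestine EGF is a standard supplement of organoid culture and Egfr signalling supports the division of crypt cells.

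The ligand genes Ereg (chr5:91074622-91093646) and Areg (chr5:91139599-91148432) are neighbours on the plus strand of mm10 in GENCODE M21, with 45952 bases between them. Egf lies at chr3:129677565-129755316 and Tgfa at chr6:86195223-86275719. Egfr (chr11:16752203-16918158) and Erbb2 (chr11:98412470-98437716) share a chromosome, Erbb3 lies at chr10:128567523-128589652 and Errfi1 at chr4:150853919-150868892. RefSeq promoters on GRCm38.p6, each from 250 bases before to 50 bases after a start site, were held for 6 of the 9 members and gave 8 windows. The motifs TGACGTCA (the cAMP response element), TGANTCA (AP-1), GCGNGGGCG (EGR) and TATAAA (the TATA box) were searched on both strands. Only the windows of Areg and of the downstream Errfi1 start held any of them. These are printed because Areg and Errfi1 were the 2 members called higher in goblet cells with edgeR. DESeq2 also called Hbegf in goblet cells, and no Hbegf window was searched. The capitals mark TGACGTCA and TATAAA.
Areg promoter (chr5:91139349-91139648, plus strand): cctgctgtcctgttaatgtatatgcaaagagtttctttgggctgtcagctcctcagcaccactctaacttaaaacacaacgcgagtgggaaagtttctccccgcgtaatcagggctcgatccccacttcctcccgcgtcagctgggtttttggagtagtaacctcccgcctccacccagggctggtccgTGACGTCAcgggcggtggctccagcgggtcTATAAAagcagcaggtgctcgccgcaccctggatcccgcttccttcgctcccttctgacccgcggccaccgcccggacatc
Errfi1 promoter (chr4:150854820-150855119, plus strand): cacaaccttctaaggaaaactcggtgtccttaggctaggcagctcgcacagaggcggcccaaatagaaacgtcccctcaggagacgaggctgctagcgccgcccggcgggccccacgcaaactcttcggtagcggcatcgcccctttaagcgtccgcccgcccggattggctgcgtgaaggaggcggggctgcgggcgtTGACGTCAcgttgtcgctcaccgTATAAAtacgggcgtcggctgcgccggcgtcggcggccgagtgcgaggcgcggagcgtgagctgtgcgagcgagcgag
The cAMP response element begins at position -61 from the start site in Areg and at -51 in Errfi1, and the TATA box at -31 and -28. TGACGTCA was found in 1.79% of all 32851 promoters, TATAAA in 13.6%, TGANTCA in 7.81% and GCGNGGGCG in 5.55%. A match describes the letters of the window and is not evidence of binding.

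A level is given in CPM, the UMI count of a gene scaled to 1000000 UMIs of all genes, over the summed cells of 1 type in 1 library. UMIs stand for captured RNA molecules, and the kit reads 3′ ends, so levels of different genes were not compared. Kept cells held 44017234 UMIs in replicate 1 and 22163354 in replicate 2, and sums per epithelial type ranged from 215413 UMIs (enteroendocrine cells, EEC, of replicate 2) to 19366535 (enterocytes of replicate 1). The matrices hold 7665 and 1251 barcodes, of which 2325 and 1229 pass the cell filter that the methods state, and no barcode is shared by the libraries. Of 60 marker entries fixed for the 10 types, 48 were highest in their own type in both mice. For goblet progenitors 0 of 6 were. Of their list, Tff3, Agr2, Muc2 and Fcgbp are also goblet markers and Mki67 is also a TA marker. A gene highest in goblet or TA cells could not be highest in goblet progenitors as well, so this count is a weak check. The median mitochondrial percent of kept cells was 10.2% in replicate 1 and 5.55% in replicate 2. In Paneth cells 10 genes held 82.6% and 81.9% of all UMIs, so that CPM of other genes are low there. TMM scaling lifts Paneth values several fold, and directions there, such as those of Tgfa and Egfr, turn with the scaling. The summed level of 6 fibroblast markers was at most 0.623 CPM in any type, and that of 6 smooth muscle markers at most 1.79 CPM.

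**Figure D1:**
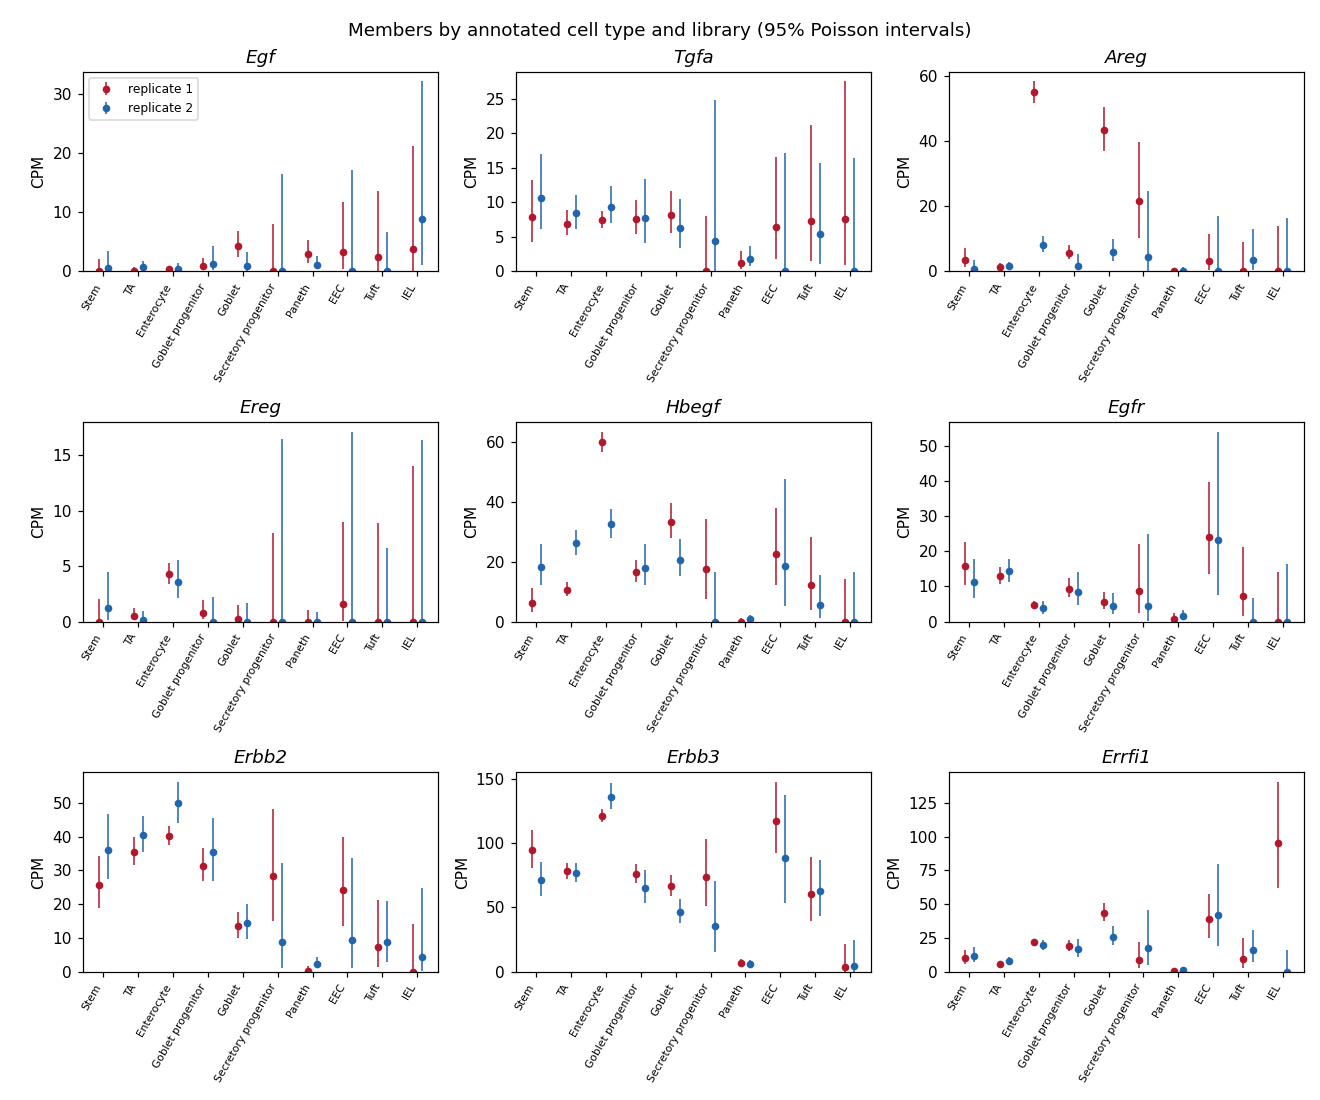
Each panel shows 1 member, with the annotated cell type on the x axis and the level in CPM on the y axis. Points are the 2 libraries (red replicate 1, blue replicate 2) and bars are 95% Poisson intervals, which cover counting error only. Areg is highest in enterocytes of both libraries but at 55.0 and 8.04 CPM, whereas Egfr in EEC, its highest type, is at 24.2 and 23.2 CPM.

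Cell types were compared in 1 edgeR quasi-likelihood model over 18 sums (9 epithelial types in 2 mice), with 8 residual degrees of freedom, cell type and mouse as terms, and p values adjusted over 11013 genes. Of the 9 members, 7 passed the filter on low counts, and Egf and Ereg did not. Areg, Hbegf, Egfr, Erbb2, Erbb3 and Errfi1 differed among the 9 epithelial types. That is 6 of 7 tested members, against a background of 77.3% of all genes tested, so the share is near the background. Between enterocytes and stem cells, 5 of the 7 were higher in enterocytes (27.8% of all genes) and 1, Egfr, was lower (23.5% of all genes). The median log2 fold change of the 7 in this comparison was 0.92, beside 0.06 over all genes. P values rest on the spread left among the 18 sums after cell type and mouse are fitted, and not on the mean difference between the mice.

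Each epithelial type was then set against the unweighted mean of the other 8. In enterocytes 7 of 7 members passed the test (54.5% of all genes), 6 of them higher and Egfr lower, and DESeq2 called all of these but Tgfa. Transit-amplifying (TA) cells gave 3 calls (32.8% of genes), goblet cells 2 (29.2%), EEC 2 (21.6%) and tuft cells 1 (16.0%). With edgeR no member was called in stem cells (25.6% of genes), goblet progenitors (12.1%), secretory progenitors (4.78%) or Paneth cells (27.0%). At an unadjusted p under 0.05 these types had 2, 1, 1 and 1 members, and DESeq2 called 1, Tgfa in Paneth cells, where directions depend on the scaling. The 15 calls thus fell on 5 of the 9 types.

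**Figure D2:**
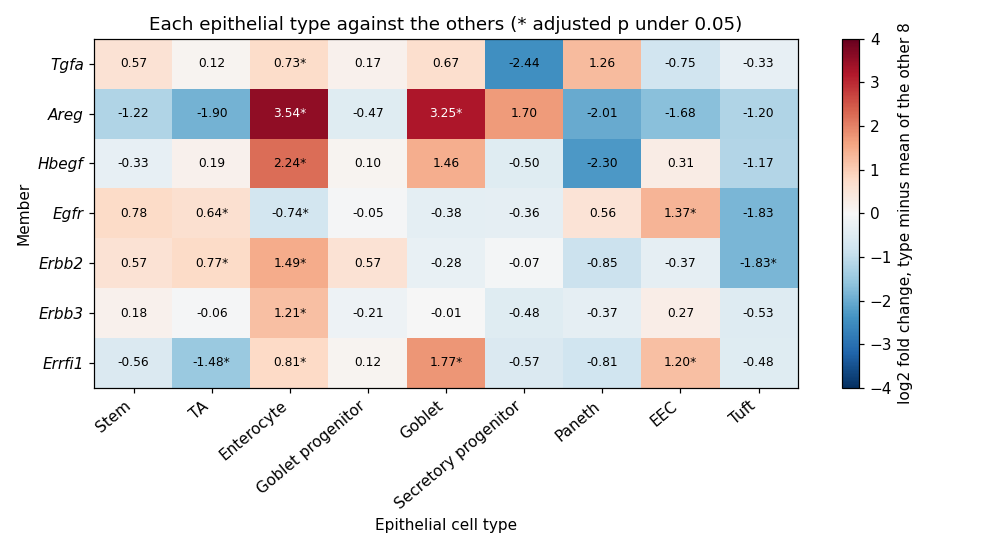
Rows are the 7 members that passed the count filter, columns the 9 epithelial types, and colour and number give the log2 fold change of a type over the mean of the other 8 in the edgeR fit. Asterisks mark adjusted p values under 0.05, and all 7 members carry one in the enterocyte column.

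Areg encodes amphiregulin, a ligand of Egfr. Its level in enterocytes was 55.0 CPM in replicate 1 and 8.04 CPM in replicate 2. In goblet cells it was 43.4 and 5.81 CPM. Stem cells had 3.36 and 0.623 CPM and TA cells 1.42 and 1.57 CPM. Enterocytes and goblet cells were thus the 2 highest types on average, they overlap each other between the mice, and both lay above stem and TA cells within each mouse. Secretory progenitors had 21.7 CPM in replicate 1, but all 10 UMIs of it came from 1 of 31 cells. In intraepithelial lymphocytes (IEL) the count was 0 in both libraries.

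Areg was higher in enterocytes than in stem cells by 4.23 ± 0.61 on the log2 scale (fitted value ± its standard error, SE, with an edgeR adjusted p of 1.1e-05), an 18.8-fold difference. Within replicate 1 the difference was 4.16 and within replicate 2 it was 2.95. Against the mean of the other types it was 3.54 ± 0.32 in enterocytes (adjusted p = 1.7e-08, edgeR) and 3.25 ± 0.38 in goblet cells (adjusted p = 1.7e-06, edgeR). Without replicate 1 these 2 values were 1.95 and 1.65, with no test. With only cells of at least 2000 genes and at most 10% mitochondrial UMIs (the stricter cell filter), the goblet call was kept but the enterocyte calls were lost, at 2.96 over stem cells (adjusted p = 0.104, edgeR) and 1.83 over the other types (adjusted p = 0.0972, edgeR). Summed levels of 10 immediate early genes, which respond to dissociation, were 1151 and 582 CPM in enterocytes and 3675 and 2055 CPM in goblet cells. They were 386 and 437 CPM in stem cells and 3716 and 2883 CPM in EEC. Areg in EEC was 3.22 and 0 CPM (2 and 0 UMIs), and the count of 0 allows 13.9 CPM. The part of the immediate early genes in the Areg difference was not tested.

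Ereg encodes epiregulin, which binds Egfr and Erbb4. It was counted 93 times in replicate 1 and 22 times in replicate 2 over the epithelial types, and 83 and 19 of these UMIs were in enterocytes. The enterocyte level was 4.29 CPM and 3.55 CPM. In every other type and library it was at most 1.61 CPM, so that enterocytes did not overlap with the next type, and goblet cells had 0.264 and 0 CPM. Under the stricter cell filter enterocytes had 1.35 CPM (4 UMIs) and 2.88 CPM (13 UMIs), and the lower value overlaps with stem cells of replicate 2, at 1.36 CPM (2 UMIs). Before that filter Ereg and Areg shared their highest type. Of enterocytes, 7.41% and 4.19% held an Ereg UMI, whereas 0 of 78 and 0 of 54 Paneth cells did, which allows shares of up to 3.85% and 5.56%.

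Hbegf (chr18:36504927-36515805, mm10) encodes a heparin-binding ligand of Egfr and Erbb4. Enterocytes had 59.8 CPM in replicate 1 and 32.3 CPM in replicate 2, the highest level of each library. Under the stricter cell filter replicate 1 had 25.2 CPM in enterocytes, below its goblet cells (34.9 CPM) and EEC (26.5 CPM). Without that filter stem cells had 6.17 and 18.1 CPM and TA cells 10.7 and 26.1 CPM. Goblet cells had 33.3 and 20.6 CPM, and EEC 22.6 and 18.6 CPM. Neighbours in the order enterocyte, goblet, EEC, TA, goblet progenitor and stem all overlap over the 2 mice. The enterocyte to stem difference was 2.28 ± 0.71 on the log2 scale (SE, adjusted p = 0.0245, edgeR), and it was 3.52 in replicate 1 but 0.98 in replicate 2. Against the other types, enterocytes were higher by 2.24 ± 0.45 (adjusted p = 0.0025, edgeR). The difference among the 9 types was close to the threshold (adjusted p = 0.0478, edgeR), and it was lost without Paneth cells or with IEL included.

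Tgfa, the ligand TGF-alpha, was at similar levels over most of the epithelium. It was 7.85 and 10.6 CPM in stem cells, 6.87 and 8.39 in TA cells, 7.49 and 9.35 in enterocytes, and 8.20 and 6.26 in goblet cells. These ranges overlap, and the test among types did not pass (adjusted p = 0.0712, edgeR). Enterocytes passed against the mean of the others, at 0.73 ± 0.28 (adjusted p = 0.0251, edgeR), but the value falls to 0.15 (adjusted p = 0.81, edgeR) under the stricter cell filter. The call was also lost with DESeq2 (0.67, adjusted p = 0.0641) and without mouse as a term (0.74, adjusted p = 0.114, edgeR). Paneth cells had the lowest mean CPM, 1.14 and 1.83, although their TMM-scaled values of 7.31 and 15.2 CPM are not low.

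Egf was rarely captured, with 43 and 16 UMIs in all epithelial cells of replicates 1 and 2. Goblet cells had 16 and 2 UMIs, which gives 4.23 and 0.894 CPM, and Paneth cells 10 and 5 UMIs, or 2.84 and 1.15 CPM. Counted per 100 cells, the Paneth level was 12.8 and 9.26 UMIs and the goblet level 5.78 and 1.45 UMIs. Paneth cells were deep, with median totals of 44684 and 80820 UMIs, against 13649 and 15708 in goblet cells. When cells were thinned to 5000 UMIs, 2.56% and 0% of Paneth cells and 1.81% and 0.725% of goblet cells held an Egf UMI. TMM-scaled values were 18.3 and 9.47 CPM in Paneth cells and 4.26 and 0.941 CPM in goblet cells. In the fit without the filter on low counts, Egf was higher than in the other types in both. The log2 value was 4.77 in Paneth cells (adjusted p = 5.9e-07, edgeR) and 2.32 in goblet cells (adjusted p = 0.0314, edgeR). That fit gave far smaller p values among types than the main fit for the members tested in both, except Tgfa. For Hbegf the adjusted p among types was 3.2e-39 in place of 0.0478 (edgeR). The 2 Egf p values, which rest on few UMIs, are thus not taken as strong support. The order of goblet and Paneth cells depends on the measure and the scaling. IEL had the highest mean CPM, but from 1 and 2 UMIs.

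Egfr, the receptor that all 5 of these ligands bind, ran opposite to Areg, Hbegf, Erbb2, Erbb3 and Errfi1 between stem cells and enterocytes. It was 15.7 and 11.2 CPM in stem cells, 12.9 and 14.3 CPM in TA cells and 4.65 and 3.74 CPM in enterocytes. The stem and enterocyte values do not overlap, and the enterocyte minus stem value was -1.34 ± 0.35 (log2, SE, adjusted p = 0.0018, edgeR), with -1.28 in one mouse and -1.30 in the other. The highest level was in EEC, the hormone-secreting cells, at 24.2 CPM (15 UMIs) and 23.2 CPM (5 UMIs). EEC did not overlap with TA cells, the next type, and stood 1.37 ± 0.44 above the other types (adjusted p = 0.0238, edgeR). TA cells were higher than the others by 0.64 ± 0.24 (adjusted p = 0.0406, edgeR), and enterocytes were lower, at -0.74 ± 0.28 (adjusted p = 0.0282, edgeR). The TA call was lost with DESeq2 (adjusted p = 0.0688), the enterocyte call under the stricter cell filter (-0.50, adjusted p = 0.29, edgeR), and all 3 without mouse as a term or with thinned cells, where the TA values were 0.65 and 0.87 and the EEC values 1.39 and 1.91. TMM scaling lowers the mean EEC level from 23.7 to 15.7 CPM. No Egfr UMI was found in IEL, where a count of 0 allows 11.4 and 13.3 CPM.

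A UMI of Egfr was seen in 17.3% and 12.8% of stem cells, 22.5% and 21.1% of TA cells and 18.5% and 20% of EEC. For enterocytes the share was 8.49% and 4.97%. Median totals were 12282 and 12559 UMIs in stem cells and 16975 and 13405 in enterocytes. Among IEL, which serve as background for the receptors, it was 0 of 50 cells (median total 4110 UMIs) and 0 of 18 cells (10226 UMIs), which allows shares of up to 6.0% and 16.7%. With every cell thinned to 5000 UMIs, stem cells had 5.88% and 3.42% and enterocytes 2.04% and 1.83%, and the fitted stem to enterocyte difference was no longer called (-1.13, adjusted p = 0.134, edgeR).

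Erbb2 was widespread and had its lowest mean CPM among epithelial types, Paneth cells aside, in tuft cells. Enterocytes had 40.3 and 49.9 CPM, TA cells 35.5 and 40.6, goblet progenitors 31.5 and 35.4, and stem cells 25.8 and 36.2 CPM. The values of neighbouring types in this series overlap, except TA cells over goblet progenitors. Goblet cells had 13.5 and 14.3 CPM and tuft cells, which are chemosensory, 7.25 and 8.93 CPM. Enterocytes exceeded stem cells by 0.82 ± 0.24 (log2, SE, adjusted p = 0.0051, edgeR) and the other types by 1.49 ± 0.17 (adjusted p = 1.1e-08, edgeR). TA cells were higher than the other types by 0.77 ± 0.19 (adjusted p = 0.0018, edgeR), and tuft cells fell by 1.83 ± 0.48 on the log2 scale (adjusted p = 0.0073, edgeR), the latter on 3 and 5 UMIs. The tuft call and the enterocyte to stem call were lost with thinned cells and without mouse as a term, and the TA call without that term. Of enterocytes, 52.0% and 50.8% held an Erbb2 UMI, against 7.50% and 10.5% of tuft cells and 0 of 50 and 1 of 18 IEL.

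Erbb3 had 121 and 136 CPM in enterocytes, 118 and 88.2 in EEC, 94.7 and 71.1 in stem cells and 78.2 and 77.1 in TA cells. Enterocytes did not overlap with EEC. EEC overlapped with stem cells and stem with TA cells, but EEC lay above TA cells. The enterocyte to stem difference was 0.92 ± 0.18 (log2, SE, adjusted p = 9.6e-05, edgeR), and enterocytes stood 1.21 ± 0.12 above the other types (adjusted p = 7.5e-10, edgeR). These 2 calls were kept in each of the 8 alternative fits that were run. Paneth cells had 6.54 and 6.19 CPM before scaling and 42.0 and 51.2 CPM after TMM scaling. In IEL the level was 3.81 and 4.44 CPM, 1 UMI in each library.

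Errfi1, the inhibitor, was highest among epithelial types in EEC, at 38.7 and 41.8 CPM, and in goblet cells, at 43.6 and 25.9 CPM. These 2 types overlap, and after TMM scaling the EEC mean falls from 40.2 to 26.7 CPM while goblet cells stay at 44.0 and 27.3 CPM. Enterocytes followed with 22.0 and 19.4 CPM, 0.81 ± 0.19 above the other types (adjusted p = 0.00054, edgeR; -0.19 under the stricter cell filter) but below goblet cells in both mice, and goblet progenitors with 19.2 and 16.8 CPM. TA cells had 5.81 and 8.04 CPM and stem cells 10.1 and 11.8 CPM, and TA and stem cells did not overlap. Goblet cells were higher than the other types by 1.77 ± 0.20 (log2, SE, adjusted p = 1.7e-08, edgeR), EEC by 1.20 ± 0.35 (adjusted p = 0.0111, edgeR; lost with IEL included or with thinned cells) and TA cells were lower, at -1.48 ± 0.24 (adjusted p = 1.8e-05, edgeR). Goblet cells and EEC were also the types with the highest summed level of the 10 immediate early genes, at 3675 and 2055 CPM and at 3716 and 2883 CPM. What part these have in the Errfi1 level was not tested.

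Between enterocytes and stem cells Errfi1 was higher by 1.22 ± 0.30 (log2, SE, adjusted p = 0.0011, edgeR). This call was lost under the stricter cell filter, at 0.19 (adjusted p = 0.808, edgeR), with IEL included (adjusted p = 0.065, edgeR) and with thinned cells (adjusted p = 0.106, edgeR). In IEL of replicate 1 the Errfi1 level was 95.2 CPM, from 25 UMIs in 15 of 50 cells, whereas replicate 2 had 0 UMIs in 18 cells, which allows 13.3 CPM. The annotated IEL form 2 clusters. Cluster 11, with 28270 CPM of 6 IEL markers in replicate 1, held 22 of the 25 UMIs, and cluster 14 held the other 3. Cluster 14 had 619 and 2925 CPM of the IEL markers, and in replicate 2 8917 CPM of B and plasma cell markers. Its 5048 CPM of macrophage markers in replicate 1 rest mostly on Lyz2. All IEL of that library held 479 UMIs of Lyz2 and 24 of Cd68, but 1 of Adgre1, 2 each of C1qa and Csf1r and 0 of C1qb.

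Enterocytes were annotated in 5 clusters, which are described without a test because the members may have taken part in the clustering. By the summed level of 6 enterocyte markers (Alpi, Apoa1, Fabp1 and Sis among them) the clusters ordered, on the mean of the 2 libraries, as 2, 6, 9, 3 and 1 (clusters 6 and 9 change places in replicate 1), from 2275 and 789 CPM in cluster 2 to 59029 and 52777 CPM in cluster 1. Areg was 3.43 and 0.655 CPM in cluster 2 and 3.99 and 4.94 CPM in cluster 6. It was 112 and 15.5 CPM in cluster 3 and 76.2 and 18.1 CPM in cluster 1. In both libraries the clusters richest in enterocyte markers were thus the richest in Areg.

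Errfi1 was likewise lowest in clusters 2 (6.29 and 9.83 CPM) and 6 (9.52 and 6.59 CPM) and highest in cluster 1, at 36.5 and 54.4 CPM. Egfr was 7.72 and 5.90 CPM in cluster 2 (27 and 9 UMIs) and 2.85 and 1.13 CPM in cluster 1 (14 and 1 UMIs). In replicate 2 clusters 3 and 6 held only 2 and 3 Egfr UMIs (2.38 and 2.47 CPM), so the lowest cluster of that library is not resolved. Hbegf differed between the mice, with 79.9 CPM in cluster 1 of replicate 1 but 19.3 CPM in replicate 2, and its highest level in both was in cluster 9, at 84.8 and 60.9 CPM. Erbb2 ranged only from 35.5 to 42.6 CPM over the 5 clusters in replicate 1 and from 39.5 to 69.1 CPM in replicate 2.

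**Figure D3:**
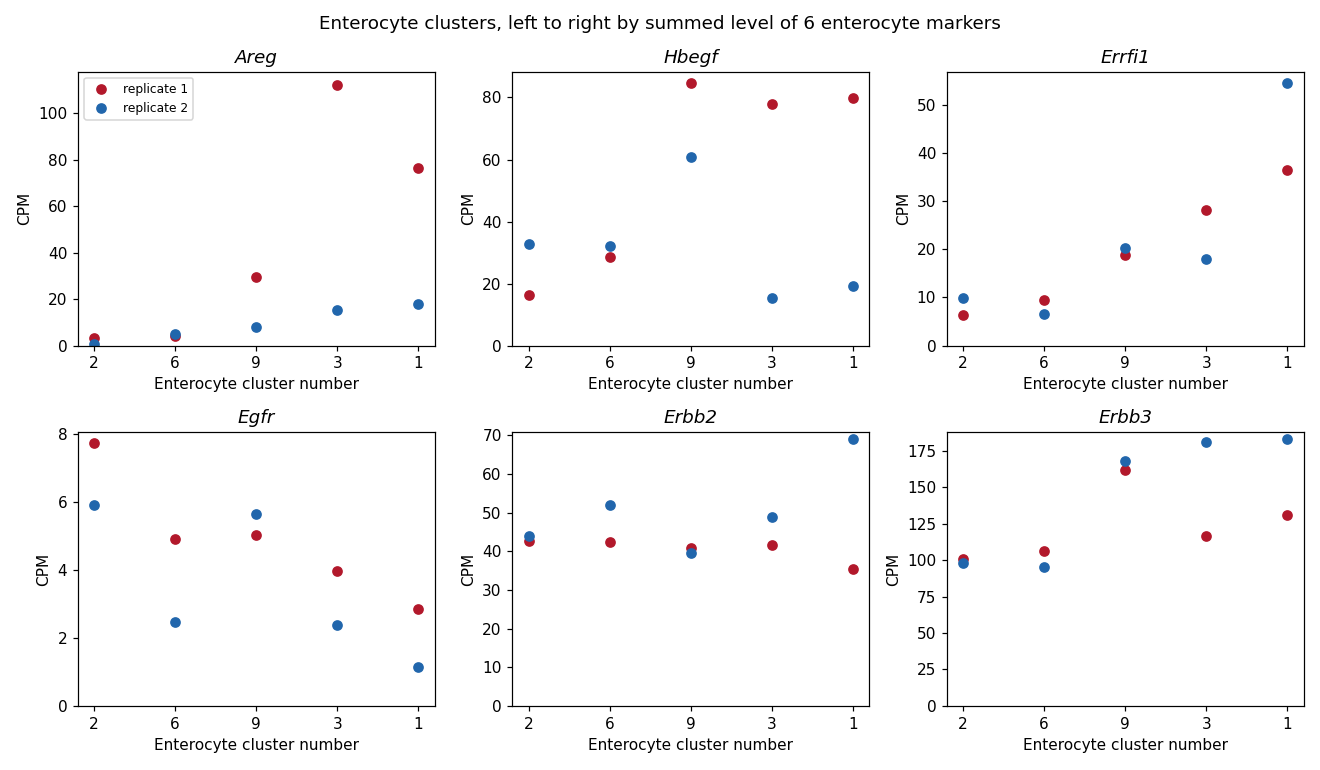
Each panel shows 1 member in the 5 enterocyte clusters, ordered on the x axis by their summed enterocyte markers, with the level in CPM on the y axis and 1 point per library. Areg and Errfi1 are low in clusters 2 and 6 and higher in 3 and 1, and Hbegf in clusters 3 and 1 is high in replicate 1 (red) only. Egfr has its lowest values in cluster 1, from 14 UMIs in replicate 1 and 1 UMI in replicate 2.

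The 2 mice share a group, so their difference has no replicate check and was not tested. In all epithelial cells together Areg was at 29.5 CPM in replicate 1 and 3.33 CPM in replicate 2, a ratio of 8.86 (95% counting interval 6.996 to 11.4). In enterocytes the ratio was 6.85 (5.05 to 9.52) and in goblet cells 7.46 (4.24 to 14.3), while in TA cells it was 0.903 (0.349 to 2.43). At least 2-fold higher CPM in enterocytes of replicate 1 was seen for 1 of the 7 tested members, Areg, and for 6.82% of all genes. Hbegf was 1.85 times higher in enterocytes of replicate 1 (1.57 to 2.18) but 0.409 times as high in TA cells (0.311 to 0.535). Ratios over all epithelial cells, which also reflect the mix of types in each library, were 2.12 for Ereg (1.32 to 3.54), 1.72 for Hbegf (1.55 to 1.92), 1.42 for Errfi1 (1.23 to 1.63) and 1.26 for Erbb3 (1.19 to 1.34). They were 1.35 for Egf, 1.04 for Erbb2, 1.03 for Egfr and 0.977 for Tgfa, with intervals that include 1. These intervals cover counting error only.

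Enterocytes of replicate 1 had a median mitochondrial percent of 13.2%, those of replicate 2 7.59%. In bands of this percent, chosen after the data were seen, Areg in enterocytes of 5 to 10% was 5.59 CPM in replicate 1 (143 cells, 3.20 to 9.08) and 8.12 CPM in replicate 2 (265 cells, 5.52 to 11.5), which overlap. In the band of 10 to 15% it was 62.4 CPM (483 cells, 57.7 to 67.4) and 14.6 CPM (61 cells, 7.004 to 26.9), which do not. The Areg ratio was 0.898 over enterocytes of at most 10% and 4.85 over those above. Hbegf in the band of 5 to 10% was 22.0 and 36.4 CPM, and in the band of 10 to 15% 60.8 and 21.9 CPM, so its order between the mice turned. Errfi1 in the band of 5 to 10% was 5.59 CPM (3.20 to 9.08) and 19.4 CPM (15.2 to 24.3), which do not overlap. In the band of 10 to 15% it was 23.5 CPM (20.6 to 26.6) and 33.6 CPM (21.3 to 50.4), which do. The Errfi1 ratio over enterocytes of at most 10% was 0.306 (0.167 to 0.529). In replicate 1, clusters 2 and 6, which are low in Areg, had median percents of 10.2% and 11.6%, and clusters 3 and 1 13.7% and 15.1%.

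Goblet cells differed from this. In goblet cells of at most 5% mitochondrial UMIs, Areg was 45.9 CPM in replicate 1 (82 cells) and 6.17 CPM in replicate 2 (130 cells). The ratio over goblet cells of at most 10% was 7.29 (4.14 to 14.0), close to that of all goblet cells. In goblet progenitors Areg was 5.58 CPM in replicate 1 and 1.80 CPM in replicate 2 (30 and 3 UMIs). All 10 immediate early genes were higher in replicate 1 in enterocytes, goblet cells and goblet progenitors, with summed ratios of 1.98, 1.79 and 1.47. In TA cells 3 of 10 were, with a ratio of 0.887. Whether mitochondrial percent or these genes have a part in the Areg difference was not tested.

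**Figure D4:**
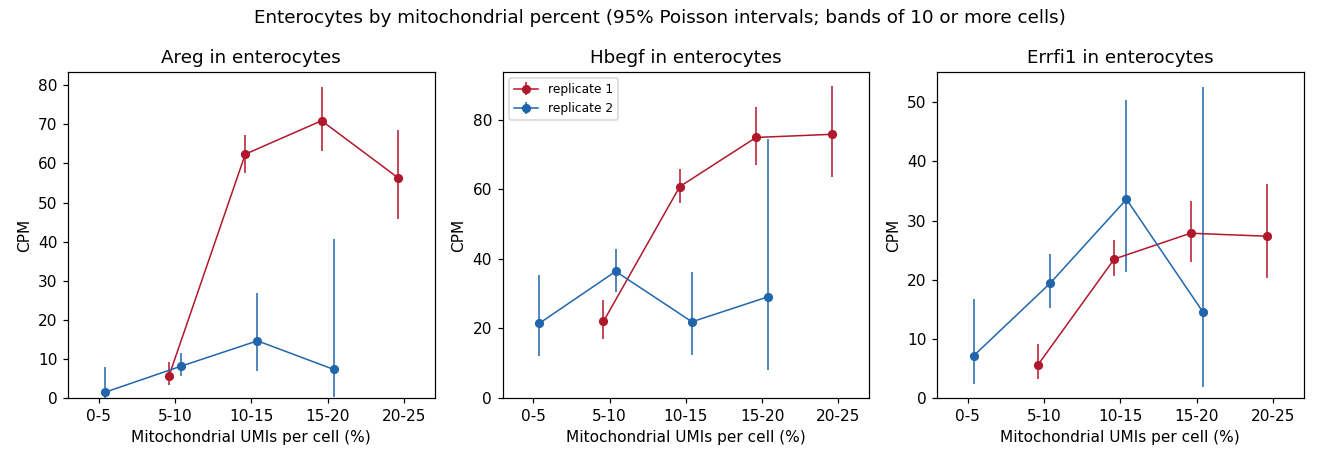
Enterocytes are split on the x axis by the percent of their UMIs from mitochondrial genes, and the y axis gives the level of Areg, Hbegf or Errfi1 in CPM. Points are libraries (red replicate 1, blue replicate 2), bars are 95% Poisson intervals, and bands of fewer than 10 cells are not drawn. The libraries overlap for Areg at 5 to 10% and separate at 10 to 15%. For Errfi1 they separate at 5 to 10% and overlap at 10 to 15%.

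Cells with a UMI of Areg made up 35.0% of enterocytes in replicate 1 (exact 95% interval 31.9 to 38.2) and 6.54% in replicate 2 (4.28 to 9.51). After thinning to 5000 UMIs the shares were 17.7% and 3.14%. The most Areg UMIs in 1 enterocyte were 27 and 6, and the tenth of enterocytes with the most Areg held 64.5% of its UMIs in replicate 1. For Hbegf the share was 46.4% and 24.9%, or 21.1% and 11.8% after thinning. Erbb3 was seen in 85.5% and 77.0% of enterocytes, against 2.0% and 5.56% of IEL. After thinning it was seen in 43.8% and 46.3% of enterocytes and in 0 of 11 and 1 of 18 IEL.

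Of 65 other genes of the pathway, in a list chosen by role, 57 passed the count filter and 39 differed among the epithelial types, a smaller share than the 77.3% of all genes. Between enterocytes and stem cells, 13 were higher in enterocytes, 11 were lower and 33 did not pass, beside 27.8% and 23.5% of all genes, so neither share exceeds the background. The median log2 fold change was 0.38, beside 0.06 over all genes. The counts by role that follow rest on 2 to 14 genes each and are read against the same shares. Among the other ligands, Btc and Nrg4 passed the filter and both differed among types. Btc was highest in goblet cells (10.8 and 5.81 CPM), and Nrg4, a ligand of Erbb4, was highest on average in tuft cells (4.84 and 21.4 CPM). In replicate 1, however, Nrg4 was highest in stem cells (9.53 CPM). Its tuft value in that library lies below the 7.25 CPM that a count of 0 allows. Nrg1, Nrg3 and the receptor Erbb4 had 0 UMIs in the epithelial cells of both libraries, and Epgn and Nrg2 had 4 each.

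Of 9 receptor-level regulators tested, 8 differed among types, and 3 were higher and 2 lower in enterocytes than in stem cells. Socs4, which targets Egfr for degradation, was higher in enterocytes, at 42.7 and 36.8 CPM against 29.7 and 21.8 CPM (log2 0.91 ± 0.21, adjusted p = 0.0005, edgeR). The ubiquitin ligase Cbl was higher as well (0.57 ± 0.22, adjusted p = 0.0265, edgeR). Lrig1 was lower in enterocytes, at 5.73 and 9.54 against 27.5 and 32.4 CPM (-1.73 ± 0.25, adjusted p = 8.1e-07, edgeR). Socs5 was also lower (-1.65 ± 0.67, adjusted p = 0.0388, edgeR), and Lrig3 was higher (1.10 ± 0.33, adjusted p = 0.0060, edgeR). Lrig1, Socs5 and Lrig3 were named after their values were seen. The phosphatase Ptpn1 was highest in tuft cells of both mice, at 70.1 and 51.8 CPM. Of 7 genes of ligand shedding and trafficking, 4 differed among types. In enterocytes against the other types 3 were called, with edgeR and with DESeq2, beside 54.5% of all genes with edgeR. Between enterocytes and stem cells 0 passed with edgeR or DESeq2, and 1, Rhbdl2, had an unadjusted p under 0.05 in edgeR. The sheddases Adam10 (44.7 and 45.8 CPM in enterocytes, 49.9 and 38.6 in stem cells) and Adam17 (13.5 and 11.03 against 11.8 and 9.35 CPM) did not differ among types by the test, and the protease Bace1 was highest in EEC, at 58.0 and 51.1 CPM.

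Among 12 adaptor and Ras genes, 6 differed among types. The adaptor Grb2 was highest in EEC (95.1 and 88.2 CPM) and Hras in tuft cells (189 and 155 CPM). Of 13 genes of the Raf to ERK and PI3K to Akt routes, 8 differed, with 4 higher and 3 lower in enterocytes. The kinase Map2k2 was at 348 and 361 CPM in enterocytes against 175 and 224 CPM in stem cells (log2 1.11 ± 0.16), and Mapk3, which encodes ERK1, at 191 and 198 against 106 and 108 CPM (1.14 ± 0.16), and both passed.

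Of the 14 feedback and target genes tested, 3 were higher and 6 lower in enterocytes than in stem cells, with a median log2 fold change of -0.58. The phosphatase genes Dusp5 (26.5 and 8.41 against 0.561 and 1.87 CPM, 4.15 ± 0.69) and Dusp6 (9.09 and 8.23 against 0 and 2.49 CPM, 3.16 ± 0.66), named here after their values were seen, were higher in enterocytes. Both were highest in EEC, at 69.3 and 65.0 CPM for Dusp5 and 30.6 and 37.1 CPM for Dusp6. Named in the same way, Myc (1.81 and 7.11 against 46.0 and 105 CPM, -4.01 ± 0.27) and Etv4 (0.0516 and 0.187 against 2.80 and 6.23 CPM, -4.77 ± 1.01) were lower in enterocytes. Phlda1 was at 10.3 and 22.8 CPM in enterocytes against 39.8 and 65.5 CPM in stem cells (-1.48 ± 0.26). The cyclin gene Ccnd1 was at 48.4 and 61.0 against 212 and 138 CPM (-1.38 ± 0.48, adjusted p = 0.0387, edgeR). Egr1, at 67.1 and 35.2 against 12.3 and 31.8 CPM, did not pass (adjusted p = 0.116, edgeR). These genes also answer to other pathways.

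The genes whose log2 scaled CPM followed each member most closely over the 18 sums were listed as a description, since the sums share libraries and cell types. They were Cxcl16 (Pearson r = 0.81) and Slc7a7 (0.80) for Areg, Urgcp (0.89) and Sgpp2 (0.89) for Hbegf, and Gjb1 (0.90) and Sowahb (0.85) for Tgfa. For the receptors they were Pxylp1 (0.92) and Twsg1 (0.86) for Egfr, Muc3 and Slc30a1 (both 0.90) for Erbb2, and Apob (0.90) and Cyp4v3 (0.89) for Erbb3. Errfi1 was followed by Gsn and Trib1 (both 0.83).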

How the data were processed

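Per the labels, reads were aligned to mm10 with Cell Ranger 3.0.1 and analysed in Seurat 3.2.1. The authors deposited UMI counts per gene and barcode for each library, the mitochondrial percent of each cell, and their cell type names. SoupX was used against ambient RNA, and which tables this concerns is not stated. They called doublets with scDblFinder and kept cells of at least 1500 genes and at most 25% mitochondrial reads. A corrected-count table, doublet calls and 2937 cell columns of another series were not used.

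Annotations were joined to the named matrices by the cell order of the whole-study count table, whose totals equal the annotated ones in 3275 of 3275 cells. Totals in the named matrices differ from the annotated ones by at most 29 and 262 UMIs per cell. Counts were summed per mouse and type and fitted in edgeR 4.0.16 (R 4.3.3; filterByExpr, TMM, robust quasi-likelihood), two-sided, with a threshold of 0.05. Mouse was a term because the sums of 1 mouse share its library. DESeq2 1.42.0 was an alternative. The script was tested on simulated data. Log2 changes per mouse used a prior count of 2. Neighbouring types were called overlapping where the values of the 2 libraries overlapped. Shares have exact Clopper-Pearson intervals, and a count of 0 was taken to allow 3 UMIs or cells. Named genes were the 9 members, up to 3 pathway genes per role by mean CPM, and the 2 genes most like each tested member. Members and lists were chosen with earlier results of these data known. Some genes that this rule names are not reported here.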

Additional observations from a re-analysis of the deposited data

Results flagged for a closer look

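The barcodes that the authors did not keep were left out of the comparisons, and 5583 such barcodes with 20287851 UMIs were in replicate 1 and 58 with 1511657 UMIs in replicate 2. The members were nevertheless counted in them. In replicate 1 Areg was at 20.5 CPM, Hbegf at 31.3 CPM, Ereg at 1.82 CPM, Tgfa at 4.49 CPM and Egf at 1.63 CPM. The receptors Egfr, Erbb2 and Erbb3 were at 4.78, 27.6 and 60.9 CPM there, and Errfi1 at 31.0 CPM. In the few barcodes of replicate 2, Tgfa was at 4.63 CPM, Hbegf at 6.62 CPM, Egfr at 5.95 CPM, Erbb2 at 11.9 CPM, Erbb3 at 35.7 CPM and Errfi1 at 7.94 CPM. Areg had 1 UMI and Ereg 0 in these, and Egf had 2. There are no control samples, so these values stand only above the limit that a count of 0 allows. Groups of 2 libraries are too small for a search for outlying samples.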

How the results depend on the processing

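Counts of members called varied between settings. Calls over the 9 type contrasts ranged from 10 to 22, with 15 in the main fit. They were 22 without the filter on low counts, 19 without Paneth cells and 11 with thinned cells. Members called between enterocytes and stem cells ranged from 3 to 7, with 6 in the main fit and 4 under the stricter cell filter. Members differing among types ranged from 5 to 8. It was 5 with IEL included or without Paneth cells (Hbegf lost), and 8 of 9 without the filter on low counts, which adds Egf and Ereg. The fit without that filter gave far smaller p values among types for the members tested in both fits, except Tgfa. With cells thinned to 5000 UMIs, 3 members differed between enterocytes and stem cells in place of 6, and 24 pathway genes differed among types in place of 39, but only 6 members and 44 pathway genes then passed the filter, in place of 7 and 57. Without a replicate block, that is, without mouse as a term, 24 pathway genes differed as well, and member calls over the 9 types fell from 15 to 10. Of 174 tested alternative values of 22 log2 fold changes of members, 147 kept direction and call, 25 lost the call and 2 turned, and of 44 values without a test, with 1 library left out, 43 kept direction. Those that turned were the enterocyte to stem value of Tgfa, at -0.43 under the stricter cell filter and between -0.013 and 0.29 when a library was left out, and the value of Errfi1 in enterocytes over the other types, at -0.19 under the stricter filter. That filter leaves 148 of 931 enterocytes of replicate 1. Leaving out 1 of the 2 libraries gives values without a test. Egf and Ereg had the fewest UMIs of the members, and tuft cells, EEC and secretory progenitors the smallest sums of the epithelial types. Depth limits what can be said of these.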
